A study of Homo sapiens with 12 samples.

Results

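The genes described here moved in the same direction in 2 human melanoma cell lines, A375 and A2058, after exposure to vemurafenib. A gene was taken as a member when its mean change had the same sign in both lines and, within each line, its 3 treated arrays all lay above or all lay below its 3 control arrays. Of 18404 named genes, 3347 met this rule (18.2%), 1657 as rises (9.00%) and 1690 as falls (9.18%). Members were ranked by the smaller of their 2 absolute changes, so a high rank requires a large change in both lines. The values of the 12 arrays chose the members, so their values are given as a description, and no p-value for the drug effect is attached to them.

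Total RNA was measured on Affymetrix gene arrays, with 3 arrays for each of 4 groups, since each line was given either the drug or DMSO. Both established lines are labelled BRAF (V600E), and their labels name no further allele. The drug was given at 1 µM over 72 h and refreshed at intervals of 24 h, and controls had an equal volume of its solvent DMSO. Dose and time come from a protocol attached to every sample, which mentions only A375p cells, the labels' source name for A375; for A2058 they rest on the protocol being shared. The labels do not say that replicates were separate cultures, so standard errors and p-values measure the spread between these arrays.

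Mutant BRAF signals through the kinases MEK and ERK, and ERK in turn switches on genes for growth and division. Among its targets are its own brakes, the dual specificity phosphatases (DUSP), which remove phosphates from ERK, and the Sprouty proteins, which act upstream of it. Vemurafenib blocks mutant BRAF, so the messages of these brakes are a common readout of the pathway's output. In melanocytic cells ERK also acts on MITF, the transcription factor of the pigment lineage, whose relatives TFEB and TFE3 control lysosomal genes.

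Values are the authors' deposited log2 expression levels, and a change is the log2 difference vemurafenib minus DMSO ± SE from a limma fit over all 12 arrays, so 1 log2 unit is a 2-fold change. Arrays of a group correlated at r = 0.9978 to 0.9989 across genes, except A375 vemurafenib replicate 1, at 0.9939 and 0.9941 with its partners. Without that array 3929 genes met the rule, 2067 as rises and 1862 as falls. All 3347 members remained in each set with 1 array left out, since a smaller group can only widen the gap. Of the pigment lineage markers, SOX10 and MITF stood above the median gene level of 6.01 in all groups, while in A375 MLANA, PMEL and TYR stood below it. Markers of other cell types were members in 1 of 12 cases for fibroblasts, 2 of 11 for immune cells and 2 of 12 for epithelia. For endothelium 0 of 10 were members, and over all genes 18.2% were. The immune marker PTPRC had group means of 4.15 to 4.17. In A375 the mean epithelial marker level per array went from 5.57 to 5.58 with DMSO to 5.17 to 5.34 with vemurafenib, and the fibroblast level from 4.92 to 4.97 to 5.21 to 5.32. In A2058 the epithelial level went from 5.33 to 5.36 to 5.19 to 5.23, the immune level from 5.40 to 5.41 to 5.21 to 5.26, and the fibroblast level from 5.32 to 5.37 to 5.32 to 5.35. The part of any such cells in the results was not tested. Among all these markers the largest falls were those of the keratin KRT18, whose probes may also read its many pseudogenes (-1.79 ± 0.12 in A375 and -1.41 ± 0.12 in A2058), and of lysozyme, LYZ (-1.27 ± 0.1 and -2.12 ± 0.1).

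By limma's average drug effect, the mean of the changes in both lines, 7132 genes were called at an adjusted p under 0.05 (38.8%), 3629 up (19.7%) and 3503 down (19.0%). Of the 3347 members 3318 were among these calls and 29 were not. The same arrays chose the members and gave the calls, so the rule largely fixed this overlap, and it is no test of the members. "Rose" and "fell" are used below for called genes alone. Another 1359 genes (7.38%) were free of overlap in each line but moved in opposite directions, 579 up in A375 (3.15%) and 780 down in A375 (4.24%). By each line's own limma test 6816 genes were called in A375 (37.0%) and 4991 in A2058 (27.1%), 2460 in both with the same sign (13.4%) and 812 with opposite signs (4.41%). Across all genes the changes in the 2 lines correlated at r = 0.37, as a description over genes measured on the same arrays. The median member moved by 0.24 in the line where it moved less, and 155 members moved at least 2-fold in each line (0.842%), 43 as rises (0.234%) and 112 as falls (0.609%). At 4-fold or more in each line there were 2 rises, P2RX7 and PRUNE2, and 18 falls. Membership went with signal level: 35.3% of the brightest 25% of genes were members against 2.41% of the dimmest 25%. Counts in the gene lists below are to be read against the shares over all genes. These are 9.00% shared rises, 9.18% shared falls, 7.38% opposite, 19.7% called up and 19.0% called down.

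**Figure D1:**
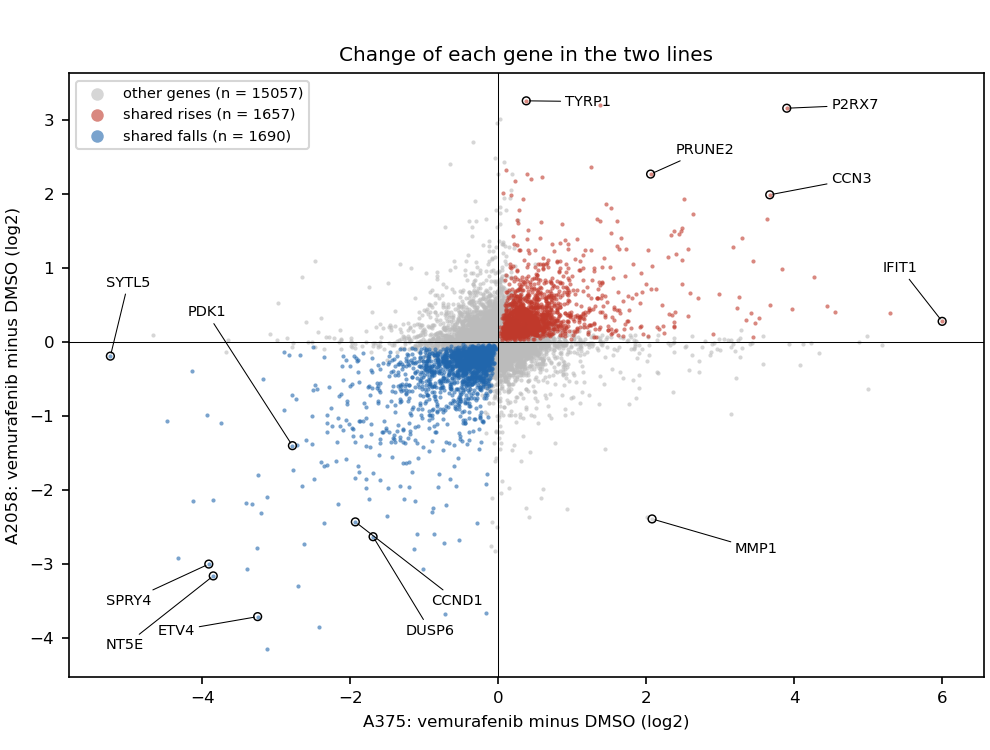
Each point is 1 of 18404 genes, placed by its log2 change in A375 (horizontal) and in A2058 (vertical). The 1657 shared rises are red, the 1690 shared falls blue and all other genes grey; ETV4, SPRY4 and NT5E lie far out in both lines, while IFIT1 and SYTL5 moved far in A375 and little in A2058.

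The largest shared rise was that of P2RX7, an ATP-gated ion channel. The A375 arrays gave P2RX7 levels of 4.97, 5.05 and 5.06 with DMSO and 8.76, 9.02 and 9.01 with vemurafenib. Those of A2058 gave P2RX7 levels of 5.93, 5.82 and 6.05 and 9.21, 9.20 and 8.88. No treated array came near a control array, and the change was 3.90 ± 0.096 in A375 (14.9-fold) and 3.16 ± 0.096 in A2058 (8.97-fold). PRUNE2 followed at 2.06 ± 0.086 and 2.27 ± 0.086, and the line difference for it was not called (-0.20 ± 0.12, limma adjusted p = 0.273). CCN3, a secreted matricellular protein, rose by 3.67 ± 0.042 in A375 and 1.99 ± 0.042 in A2058. The ceramide transfer protein CERT1 (2.48 ± 0.052 and 1.54 ± 0.052), the chaperone HSPA2 (1.52 ± 0.058 and 1.81 ± 0.058), the membrane carboxypeptidase CPM (1.61 ± 0.061 and 1.64 ± 0.061) and the matrix protein MATN2 (2.38 ± 0.048 and 1.5 ± 0.048) also stood among the 15 largest. The others were SLC35F1, LINC00518, OLFML2A, BEST1, RNF144B, SESN3, FSTL1 and ARHGAP24, with smaller changes between 1.45 for ARHGAP24 and 1.94 for SLC35F1. LINC00518, a long noncoding RNA, was the highest placed of 35 members among 626 measured long noncoding RNAs (5.59%, against 18.2% of all genes).

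The largest shared falls were deeper than the rises. ETV4, an ETS family transcription factor and a direct output of ERK, ranked first. Levels of ETV4 were 9.63, 9.67 and 9.51 in A375 with DMSO and 6.33, 6.34 and 6.39 with vemurafenib. In A2058 they were 8.89, 8.93 and 9.02 and 5.08, 5.22 and 5.41. Every treated array lay more than 3 log2 units below the controls of its line, at -3.25 ± 0.075 in A375 and -3.71 ± 0.075 in A2058. NT5E encodes CD73, the surface enzyme that makes adenosine from AMP. NT5E stood at 9.21, 9.19 and 9.16 on the A375 DMSO arrays and at 5.29, 5.30 and 5.42 on the A375 vemurafenib arrays. On the A2058 arrays NT5E stood at 8.72, 8.74 and 8.81 with DMSO and at 5.61, 5.66 and 5.52 with vemurafenib. Groups were far apart in both lines, with changes of -3.85 ± 0.05 and -3.16 ± 0.05. The itch receptor MRGPRX4 (-3.13 ± 0.079 and -4.15 ± 0.079), whose probes can be shared with its near-identical family, and the growth factor binding protein IGFBP3 (-3.39 ± 0.063 and -3.06 ± 0.063) came next. TGFA, a ligand of the EGF receptor, fell (-3.26 ± 0.11 and -2.78 ± 0.11), the hyaluronan-degrading protein CEMIP (-4.32 ± 0.046 and -2.92 ± 0.046), and SFRP1, a secreted WNT antagonist (-2.17 ± 0.051 and -2.19 ± 0.051). The remaining falls among the first 15 were SPRY4, SHISA2, GRAMD1B, RGS5, KCNN4, PAPSS2, LRATD2 and AK4.

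**Figure D2:**
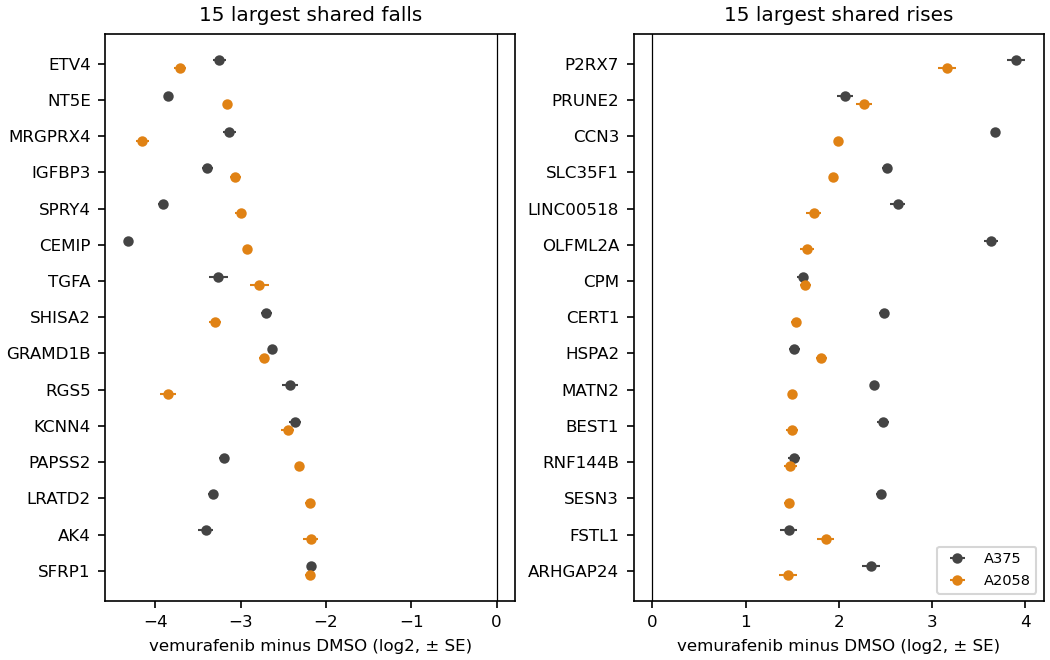
Points give the log2 change of the 15 largest shared falls (left) and rises (right) in A375 (grey) and A2058 (orange), with bars for ± SE from the limma fit, ordered by the smaller change. ETV4 heads the falls and P2RX7 the rises; A375 moved further than A2058 for CCN3 and OLFML2A, and A2058 further for RGS5 and MRGPRX4.

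Of 15 measured ERK phosphatases, Sprouty proteins and relatives, 9 were shared falls, 1 was a shared rise and 2 were opposite, with a median average change of -0.70 against 0.01 over all genes. SPRY4 was the deepest. With DMSO the SPRY4 level was 10.15, 10.16 and 10.19 in A375 and 8.52, 8.60 and 8.56 in A2058. With vemurafenib the SPRY4 level was 6.19, 6.30 and 6.29 in A375 and 5.46, 5.49 and 5.71 in A2058. Its arrays were separated by at least 2 log2 units in each line, with changes of -3.91 ± 0.06 and -3.0 ± 0.06, and the fall in A375 was the larger (difference -0.91 ± 0.085, limma adjusted p = 3.9e-06). Its relatives SPRY1 (-2.06 ± 0.072 and -1.58 ± 0.072) and SPRY2 (-1.32 ± 0.076 and -1.28 ± 0.076) fell too. For the ERK phosphatase DUSP6 the fall was larger in A2058. In A375, DUSP6 read 10.19, 10.26 and 10.19 with DMSO and 8.48, 8.54 and 8.56 with vemurafenib. In A2058, DUSP6 read 9.67, 9.75 and 9.80 and 7.15, 7.0 and 7.19. No treated array reached a control array, and DUSP6 changed by -1.69 ± 0.055 in A375 and -2.63 ± 0.055 in A2058 (difference 0.93 ± 0.077, adjusted p = 1.22e-06). DUSP4, a nuclear phosphatase, also fell further in A2058 (-0.51 ± 0.046 and -1.31 ± 0.046), and DUSP5, another nuclear phosphatase, further in A375 (-1.35 ± 0.072 and -0.45 ± 0.072). IER3, which prolongs ERK activity, fell (-1.88 ± 0.059 and -1.75 ± 0.059). Against these stood PEA15, which holds ERK in the cytoplasm, a shared rise of 0.71 ± 0.043 and 0.33 ± 0.043. SPRED1 moved in opposite directions (0.18 ± 0.042 and -0.34 ± 0.042), as did NF1 (-0.32 ± 0.052 and 0.16 ± 0.052). The list held 10 members with or without A375 vemurafenib replicate 1.

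Transcriptional outputs of ERK leaned the same way: 35 of 39 were called down by the average effect and none up, and 26 were shared falls, with a median of -0.68. CCND1 encodes cyclin D1, which drives cells into the division cycle. The A375 arrays gave CCND1 levels of 10.20, 10.15 and 10.14 with DMSO and 8.35, 8.21 and 8.15 with vemurafenib. Those of A2058 gave CCND1 levels of 9.97, 10.15 and 10.09 and 7.62, 7.63 and 7.66. No treated array reached a control array, and the change was larger in A2058, at -2.43 ± 0.057 against -1.93 ± 0.057 in A375 (difference 0.51 ± 0.081, limma adjusted p = 0.000357). ETV5, a relative of ETV4, fell (-1.33 ± 0.058 and -1.95 ± 0.058), the potassium channel KCNN4 (-2.36 ± 0.073 and -2.45 ± 0.073), and the phosphate transporter SLC20A1 (-2.36 ± 0.072 and -1.68 ± 0.072). The members not shared included EGR1, at -2.32 ± 0.065 in A375 and 0.063 ± 0.065 in A2058, and TRIB2, a pseudokinase, at -2.60 ± 0.065 and 0.27 ± 0.065. The line difference for EGR1 was -2.39 ± 0.091 (adjusted p = 9.62e-10).

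AP-1 subunits and other immediate early factors were mixed, with 4 shared falls (18.2%) and 1 shared rise (4.55%) among 22 and a median of -0.04. The falls were EGR3 (-0.87 ± 0.057 and -0.67 ± 0.057), IER2 (-0.89 ± 0.096 and -0.41 ± 0.096), FOSL1 (-0.26 ± 0.14 and -1.17 ± 0.14) and SRF (-0.11 ± 0.041 and -0.31 ± 0.041). The rise was that of JUN, the AP-1 subunit controlled by the kinase JNK. Levels of JUN were 5.40, 5.52 and 5.63 in A375 with DMSO and 8.76, 8.79 and 8.87 with vemurafenib. In A2058 they were 5.75, 5.97 and 5.79 and 7.23, 7.16 and 7.31. JUN was high in all treated arrays of both lines, and it rose by 3.29 ± 0.069 in A375 against 1.40 ± 0.069 in A2058 (difference 1.89 ± 0.097, adjusted p = 1.58e-08). The letters of the AP-1 site, TGACTCA, read on both strands, stood in the 250 bases before the start of 5 of 27 ERK output genes with a promoter in the RefSeq table (18.5%), against 4.58% of all 14228 genes, 5.09% of shared rises and 5.24% of shared falls. Of these 5 genes PLAUR, CXCL8 and MAP2K3 were shared falls, and UPP1 and ZNF239 were no members. Those of an ETS site, CCGGAAGT, stood in 3 of these 27 (11.1%, against 5.93% of all, 7.81% of shared rises and 6.28% of shared falls) and in 0 of 12 feedback genes. The 3 genes, GTPBP4, POLR1C and ZNF239, were no members. The ETS letters were more frequent before ribosome biogenesis genes (7 of 38, 18.4%). A match is a run of letters, not a bound site, and no motif searched contains another. Stretches around the match are shown for PLAUR, the urokinase receptor (-1.13 ± 0.065 and -2.15 ± 0.065), at chr19:43670309-43670395 (minus strand), and for the chemokine CXCL8 (-0.72 ± 0.074 and -3.67 ± 0.074), at chr4:73740392-73740478 (plus strand), because both are shared falls. They run 5′ to 3′ on the gene's strand, from RefSeq on GRCh38.p14, with the motif in capitals.
PLAUR: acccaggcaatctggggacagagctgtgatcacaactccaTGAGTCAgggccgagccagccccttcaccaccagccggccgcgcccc
CXCL8: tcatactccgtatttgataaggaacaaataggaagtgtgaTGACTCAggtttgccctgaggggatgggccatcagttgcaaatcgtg

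**Figure D3:**
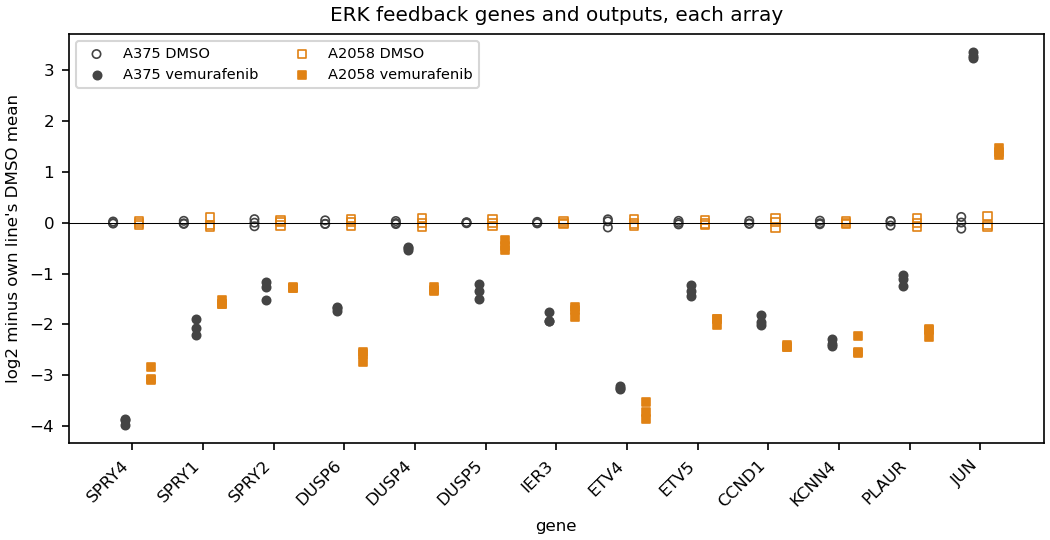
For 13 genes, each of the 12 arrays is drawn as its log2 level minus the DMSO mean of its own line: A375 as circles, A2058 as squares, DMSO open and vemurafenib filled. In both lines filled symbols lie below open ones for the first 12 genes and above them for JUN.

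Of 26 cyclins, kinases, inhibitors and E2F factors of the G1 phase, 13 were called down and 4 up, and 10 were shared falls, 1 a shared rise and 4 opposite, with a median of -0.20. CDK6, the kinase partner of cyclin D, fell (-1.52 ± 0.076 and -1.19 ± 0.076), cyclin E1, CCNE1 (-0.45 ± 0.065 and -0.43 ± 0.065), and E2F5 (-0.60 ± 0.12 and -1.39 ± 0.12). The rise was CDKN1B, the inhibitor p27 of cyclin E kinase. CDKN1B stood at 8.65, 8.55 and 8.65 on the A375 DMSO arrays and at 8.80, 8.87 and 8.89 on the A375 vemurafenib arrays. On the A2058 arrays CDKN1B stood at 8.49, 8.65 and 8.53 with DMSO and at 9.07, 9.04 and 8.98 with vemurafenib. The gap between groups was small in A375, at a change of 0.24 ± 0.052, and wider in A2058, at 0.47 ± 0.052. CDKN1A, the inhibitor p21, was opposite (0.40 ± 0.071 and -0.21 ± 0.071). Without A375 vemurafenib replicate 1 the list held 14 members in place of 11.

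Of 44 genes of DNA replication, 30 were called down and 1 up (PCNA), and 25 were shared falls and 3 opposite, with a median of -0.25. CDC45, which unwinds DNA with the MCM helicase, is shown by array. With DMSO the CDC45 level was 7.67, 7.65 and 7.72 in A375 and 9.02, 8.87 and 8.92 in A2058. With vemurafenib the CDC45 level was 6.92, 7.15 and 7.16 in A375 and 8.39, 8.35 and 8.40 in A2058. All treated arrays lay under the controls, and the change was -0.60 ± 0.063 in A375 and -0.55 ± 0.063 in A2058. ORC1, of the origin recognition complex, fell (-0.73 ± 0.075 and -0.41 ± 0.075), the licensing factor CDC6 (-0.40 ± 0.13 and -0.83 ± 0.13), and the ribonucleotide reductase subunit RRM2 (-0.40 ± 0.083 and -0.67 ± 0.083). For CDC6 and RRM2, A375 vemurafenib replicate 1 read lowest of its group, at 7.48 and 7.71. The letters of an E2F site, TTTCCCGC, on either strand, stood before 10 of 40 of these genes (25%) against 2.38% of all, and before 3.84% of shared falls and 2.44% of shared rises. Of these 10 genes 6 were shared falls, as were 17 of the 30 without the letters. UHRF1 (-0.56 ± 0.056 and -0.39 ± 0.056), MCM7 (-0.49 ± 0.036 and -0.27 ± 0.036) and CDT1 (-0.72 ± 0.058 and -0.25 ± 0.058) are shown, at chr19:4909447-4909500 (plus strand), chr7:100101537-100101624 (minus strand) and chr16:88803714-88803788 (plus strand), to let the motif and its surroundings be compared.
UHRF1: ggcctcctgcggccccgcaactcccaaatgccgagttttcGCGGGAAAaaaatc
MCM7: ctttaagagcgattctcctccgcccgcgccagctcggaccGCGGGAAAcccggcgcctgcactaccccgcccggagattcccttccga
CDT1: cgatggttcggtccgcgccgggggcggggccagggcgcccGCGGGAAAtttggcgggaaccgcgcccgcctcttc

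Genes of mitosis leaned upward. Of 45, 30 were called up by the average effect and none down, but the median was 0.39 in A375 and 0.05 in A2058, and 11 were shared rises. KIF20A, a kinesin of cytokinesis, rose by 0.95 ± 0.056 and 0.37 ± 0.056, the phosphatase CDC25B by 0.42 ± 0.042 and 0.41 ± 0.042, and FOXM1, the transcription factor of many mitotic genes, by 0.64 ± 0.047 and 0.22 ± 0.047. MKI67, a marker of cycling cells, was no member. In A375, MKI67 read 8.81, 8.83 and 8.78 with DMSO and 9.04, 9.23 and 9.24 with vemurafenib. In A2058, MKI67 read 9.45, 9.38 and 9.42 and 9.45, 9.43 and 9.29. Its groups overlapped in A2058, where the change was -0.028 ± 0.059, against 0.36 ± 0.059 in A375 (difference 0.39 ± 0.084, adjusted p = 0.00315). With each array centred on its median, 8 mitotic genes met the rule as rises.

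Genes of ribosome production leaned downward. Of 46 genes of ribosome biogenesis and RNA polymerase I, 38 were called down and 2 up (POLR1A and NOP10), and 25 were shared falls and none a shared rise, with medians of -0.15 in A375 and -0.37 in A2058. POLR1B, a core subunit of the polymerase that makes ribosomal RNA, led by the smaller change. The A375 arrays gave POLR1B levels of 9.30, 9.31 and 9.26 with DMSO and 8.59, 8.70 and 8.78 with vemurafenib. Those of A2058 gave POLR1B levels of 8.49, 8.44 and 8.52 and 7.76, 7.67 and 7.66. Treated arrays were low in both lines, at -0.60 ± 0.05 and -0.79 ± 0.05. The nucleolar chaperone NPM3 fell (-0.65 ± 0.073 and -0.56 ± 0.073), LYAR (-0.52 ± 0.075 and -0.68 ± 0.075), and the ribosome assembly factor TSR1 (-0.49 ± 0.082 and -0.56 ± 0.082). MYC, whose protein drives many of these genes, fell. Levels of MYC were 6.93, 7.02 and 6.87 in A375 with DMSO and 6.29, 6.08 and 6.28 with vemurafenib. In A2058 they were 8.71, 9.00 and 8.86 and 8.48, 8.58 and 8.57. Its groups stood apart in A375 (-0.72 ± 0.077) and only narrowly in A2058 (-0.32 ± 0.077). In the MYC network its antagonists MXD1 (0.40 ± 0.066 and 0.34 ± 0.066) and MXD4 (0.25 ± 0.051 and 0.71 ± 0.051) rose, as did MLXIP, a glucose-responsive factor (0.86 ± 0.059 and 0.80 ± 0.059), while MLX, its partner, fell (-0.41 ± 0.038 and -0.24 ± 0.038).

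Genes of glucose use had the highest share of falls among the lists. Of 23 genes of glucose uptake and glycolysis, 22 were called down, 20 were shared falls and 1 a shared rise, with medians of -0.82 in A375 and -0.33 in A2058. PDK1 encodes a kinase that inhibits pyruvate dehydrogenase. PDK1 stood at 10.05, 9.98 and 10.03 on the A375 DMSO arrays and at 7.15, 7.31 and 7.27 on the A375 vemurafenib arrays. On the A2058 arrays PDK1 stood at 9.86, 9.79 and 9.91 with DMSO and at 8.43, 8.46 and 8.45 with vemurafenib. No array overlapped, and the fall in A375, -2.78 ± 0.049, exceeded that in A2058, -1.40 ± 0.049 (difference -1.37 ± 0.069, adjusted p = 1.37e-08). The glucose transporter SLC2A3, whose probes may also read its near-identical copy SLC2A14, fell by close amounts. With DMSO the SLC2A3 level was 9.04, 9.14 and 9.20 in A375 and 8.68, 8.73 and 8.73 in A2058. With vemurafenib the SLC2A3 level was 7.68, 7.69 and 7.65 in A375 and 7.47, 7.33 and 7.30 in A2058. Its change was -1.45 ± 0.053 in A375 and -1.35 ± 0.053 in A2058. The hexokinase HK2 (-1.22 ± 0.068 and -1.30 ± 0.068) and PFKFB3 (-1.26 ± 0.064 and -1.36 ± 0.064) and PFKFB4 (-1.28 ± 0.078 and -1.35 ± 0.078), which make an activator of phosphofructokinase, fell by close amounts. At the other end GAPDH fell (-0.14 ± 0.038 and -0.14 ± 0.038). The rise was PFKFB2, a relative of PFKFB3, at 0.65 ± 0.095 and 0.61 ± 0.095. PDK3 (-1.01 ± 0.066 and 0.13 ± 0.066) and PFKM (-0.44 ± 0.048 and 0.19 ± 0.048) were opposite.

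Of 23 hypoxia inducible genes, a list that shares members with glycolysis, 19 were called down and 1 up, and 17 were shared falls, 1 a shared rise and 1 opposite, with a median of -0.62. NDRG1, a stress response gene, fell (-1.79 ± 0.037 and -1.97 ± 0.037), BNIP3, a mitophagy receptor (-1.78 ± 0.074 and -1.03 ± 0.074), and ANGPTL4, a secreted inhibitor of lipoprotein lipase (-3.74 ± 0.068 and -1.10 ± 0.068). VEGFA, the angiogenic growth factor, fell further in A2058 (-0.57 ± 0.064 and -1.94 ± 0.064). HIF1A, the regulated subunit of the oxygen-responsive factor, fell (-0.31 ± 0.069 and -0.33 ± 0.069). Its relative EPAS1 rose. In A375, EPAS1 read 6.44, 6.41 and 6.40 with DMSO and 6.48, 6.59 and 6.70 with vemurafenib. In A2058, EPAS1 read 6.20, 6.39 and 6.27 and 8.32, 8.38 and 8.12. In A2058 the groups were far apart, at 1.99 ± 0.074, whereas in A375 they nearly touched, at 0.18 ± 0.074, and with arrays centred on their median no hypoxia gene met the rule as a rise.

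Lysosomal genes were the largest block of shared rises among the lists. Of 47 genes of lysosomal enzymes, the proton pump and autophagy, 35 were called up and 5 down, with medians of 0.26 in A375 and 0.31 in A2058. Shared rises were 24 (51.1%, against 9.00% of all genes) and shared falls 1. Opposite changes were seen in 7 of the 47, against 7.38% of all genes. Cathepsin K, CTSK, a collagen-degrading protease, rose by 3.18 ± 0.092 and 1.28 ± 0.092. SMPD1, the acid sphingomyelinase, rose by close amounts. The A375 arrays gave SMPD1 levels of 7.25, 7.29 and 7.26 with DMSO and 8.38, 8.44 and 8.51 with vemurafenib. Those of A2058 gave SMPD1 levels of 7.82, 7.89 and 7.82 and 9.20, 9.10 and 8.99. Treated arrays all lay above the controls, with rises of 1.17 ± 0.054 and 1.25 ± 0.054. The acid ceramidase ASAH1 rose by 0.82 ± 0.053 and 0.95 ± 0.053 and FNIP2, a partner of folliculin, by 1.33 ± 0.079 and 0.59 ± 0.079. The fall was NPC1, the cholesterol exporter, at -0.63 ± 0.052 and -0.27 ± 0.052. TFEB (-0.093 ± 0.058 and -0.0033 ± 0.058) was not called. In this list A375 vemurafenib replicate 1 made little difference, with 26 members without it.

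MITF, TFEB and TFE3 bind E-boxes with the letters CACGTG, which read the same on both strands. These letters stood in the 250 bases before 9 of the 31 lysosomal genes with a promoter in the table (29.0%) against 9.8% of all, 12.7% of shared rises and 11.6% of shared falls. All 9 were shared rises (CLCN7, CTSD, CTSA, LAMP1, ATP6V0D1, GAA, NEU1, MCOLN1 and CTSF), as were 6 of the 22 without the letters. This split was looked at after the values were known and was not tested. The letters were about as frequent before glycolysis genes (6 of 21, 28.6%), a list with 20 shared falls. Shown are the chloride-proton exchanger CLCN7 (0.49 ± 0.05 and 0.78 ± 0.05), cathepsin D, CTSD (0.50 ± 0.04 and 0.48 ± 0.04), the protective protein CTSA (0.44 ± 0.037 and 0.52 ± 0.037) and the membrane glycoprotein LAMP1 (0.65 ± 0.055 and 0.44 ± 0.055). They lie at chr16:1475029-1475095 (minus strand), chr11:1763929-1764014 (minus strand), chr20:45891270-45891334 (plus strand) and chr13:113297171-113297238 (plus strand), and CLCN7 and CTSA hold 2 copies.
CLCN7: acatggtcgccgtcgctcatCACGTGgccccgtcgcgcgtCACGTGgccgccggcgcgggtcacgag
CTSD: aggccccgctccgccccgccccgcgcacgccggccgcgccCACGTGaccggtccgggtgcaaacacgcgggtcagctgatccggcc
CTSA: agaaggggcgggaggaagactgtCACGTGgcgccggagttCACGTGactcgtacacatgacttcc
LAMP1: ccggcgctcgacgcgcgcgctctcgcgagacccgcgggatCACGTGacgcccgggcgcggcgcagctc

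**Figure D4:**
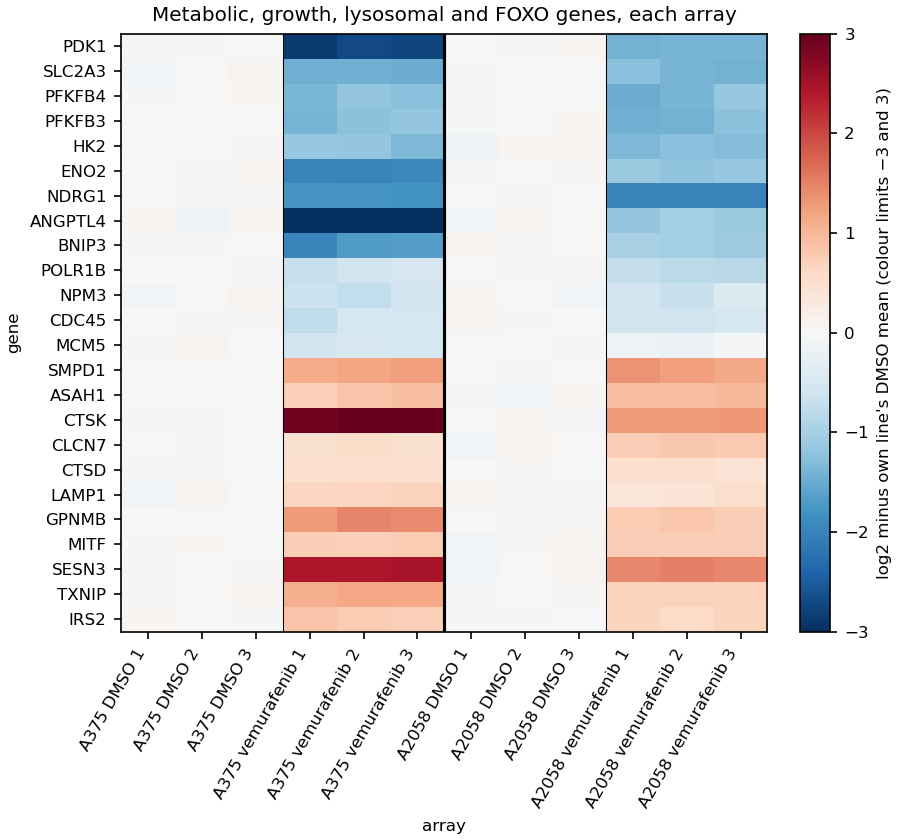
Each cell is the log2 level of a gene (rows) on 1 of the 12 arrays (columns) minus the DMSO mean of that line, with colour limits at -3 and 3, which ANGPTL4 and CTSK pass in A375. Glycolytic, hypoxia and growth genes are blue and lysosomal, MITF and FOXO genes red in the vemurafenib arrays of both lines; MCM5 is faint in A2058.

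MITF itself rose in both lines. Levels of MITF were 8.29, 8.40 and 8.34 in A375 with DMSO and 9.07, 9.05 and 9.11 with vemurafenib. In A2058 they were 9.68, 9.80 and 9.84 and 10.50, 10.51 and 10.50. A2058 started higher, and the change was 0.73 ± 0.047 in A375 and 0.73 ± 0.047 in A2058 (difference 0.0027 ± 0.066, adjusted p = 0.987). The pigment programme split between the lines, with medians of 0.03 in A375 and 0.70 in A2058. Of 37 genes 26 were called up and 2 down, 12 were shared rises (32.4%, against 9.00% of all genes) and 5 were opposite. GPNMB, a glycoprotein of melanosomes and lysosomes, rose by 1.38 ± 0.052 and 0.77 ± 0.052, the chloride channel BEST1 by 2.47 ± 0.064 and 1.5 ± 0.064, and BCL2A1, a survival protein of the BCL2 family, by 0.94 ± 0.098 and 1.00 ± 0.098. TYRP1, an enzyme of melanin synthesis, was a member with unlike sizes. TYRP1 stood at 4.56, 5.01 and 5.17 on the A375 DMSO arrays and at 5.28, 5.34 and 5.28 on the A375 vemurafenib arrays. On the A2058 arrays TYRP1 stood at 6.10, 5.82 and 6.27 with DMSO and at 9.31, 9.35 and 9.32 with vemurafenib. Its A375 arrays lay between 4.56 and 5.34 and barely cleared each other, at 0.38 ± 0.13, while in A2058 it rose by 3.26 ± 0.13. PMEL (0.078 ± 0.055 and 2.43 ± 0.055) and KIT (-0.014 ± 0.047 and 2.96 ± 0.047) were not members. The shared fall was the receptor ERBB3, at -0.14 ± 0.035 and -0.04 ± 0.035. CACGTG stood before 4 of 27 pigment genes (14.8%), MLPH, BIRC7, PPARGC1A and IVNS1ABP, none of them a member. TCATGTG, an E-box favoured by MITF, was read on both strands. TCATGTG stood before 6 of the 27 (22.2%), against 2.61% of all, 4.3% of shared rises and 1.62% of shared falls. It also stood before 2 of 12 ERK feedback genes (16.7%), SPRY1 and SPRY2, both shared falls. Printed are the 3 pigment genes with TCATGTG that were shared rises, with the motif or its reverse complement in capitals. They lie at chr15:79971197-79971262 (minus strand), chr7:23246673-23246759 (plus strand) and chr9:12693200-12693286 (plus strand).
BCL2A1: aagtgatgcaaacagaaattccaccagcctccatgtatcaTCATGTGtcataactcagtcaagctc
GPNMB: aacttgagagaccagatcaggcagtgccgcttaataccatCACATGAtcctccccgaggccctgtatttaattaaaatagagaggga
TYRP1: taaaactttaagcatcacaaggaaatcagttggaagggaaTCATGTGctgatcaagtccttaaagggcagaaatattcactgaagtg

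Markers of invasive, undifferentiated melanoma held 14 shared falls (37.8%) and 5 shared rises (13.5%) among 37, with 6 opposite and a median of -0.18. Beside NT5E and IGFBP3 stood INHBA, a subunit of activin, at -4.13 ± 0.063 and -2.15 ± 0.063. Of the transcription factors of the mesenchymal switch, ZEB1 fell (-1.57 ± 0.043 and -1.21 ± 0.043), whereas SNAI2 rose by 1.63 ± 0.046 and 1.26 ± 0.046 and ZEB2 by 2.30 ± 0.041 and 1.15 ± 0.041. In melanocytic cells SNAI2 and ZEB2 are also linked to the differentiated state, so their rises are not to be read as invasive marks. With DMSO the SNAI2 level was 9.04, 8.99 and 9.09 in A375 and 10.52, 10.62 and 10.52 in A2058. With vemurafenib the SNAI2 level was 10.68, 10.68 and 10.65 in A375 and 11.82, 11.87 and 11.76 in A2058. SNAI2 was high in all treated arrays of its line, without overlap. The other shared rises were SOX2 (0.83 ± 0.048 and 0.27 ± 0.048) and the proteases MMP2 (0.88 ± 0.036 and 0.89 ± 0.036) and MMP14 (0.68 ± 0.068 and 0.27 ± 0.068).

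Of 39 receptor tyrosine kinases and their ligands 12 were shared falls (30.8%, against 9.18% of all genes). Shared rises were 5 (12.8%, against 9.00%). After TGFA, the ephrin receptor EPHA4 fell (-0.70 ± 0.057 and -2.20 ± 0.057) (difference 1.5 ± 0.081, adjusted p = 2.58e-08). AXL, a receptor linked to the invasive state, fell (-0.67 ± 0.045 and -1.36 ± 0.045), and the ligand PDGFC (-0.67 ± 0.069 and -0.69 ± 0.069). The insulin-like growth factor receptor IGF1R (-1.44 ± 0.051 and -0.66 ± 0.051) and the hepatocyte growth factor receptor MET (-1.07 ± 0.063 and -0.25 ± 0.063) fell too. The rises were ERBB2 (0.23 ± 0.057 and 0.33 ± 0.057), TYRO3 (0.58 ± 0.082 and 0.29 ± 0.082), MERTK (2.14 ± 0.11 and 0.21 ± 0.11) and NTRK2 (0.16 ± 0.042 and 0.33 ± 0.042). HGF, the ligand of MET, met the rule with values so near each other (0.028 ± 0.038 and 0.082 ± 0.038) that the average effect was not called. EGFR was no member (-0.19 ± 0.1 and -0.16 ± 0.1).

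Of 56 matrix and adhesion genes 27 were called down and 16 up, with medians of -0.01 in A375 and -0.12 in A2058. Shared falls were 17 (30.4%, against 9.18% of all genes), shared rises 6 (10.7%, against 9.00%), and 12 were opposite. Integrin alpha 3, ITGA3, fell (-2.49 ± 0.051 and -1.85 ± 0.051), and integrin beta 3, ITGB3 (-2.26 ± 0.036 and -0.89 ± 0.036). Of 36 YAP and SRF targets 14 were shared falls, 2 shared rises and 7 opposite, with a median of -0.10. The largest fall after NT5E was that of the actin crosslinker ACTN1 (-1.63 ± 0.036 and -0.79 ± 0.036), and FSTL1 (1.46 ± 0.09 and 1.86 ± 0.09) and CALD1 (0.29 ± 0.066 and 0.63 ± 0.066) rose. Of 40 regulators of TGF-beta, BMP and WNT signalling 13 were shared falls (32.5%), 5 shared rises (12.5%) and 6 opposite. After INHBA and SFRP1, the WNT effector TCF7L2 fell (-1.39 ± 0.066 and -0.85 ± 0.066), and ID2, an inhibitor of helix-loop-helix factors, rose by 2.57 ± 0.092 and 1.26 ± 0.092, while its relative ID1 fell (-0.23 ± 0.049 and -0.65 ± 0.049). Cytokines and NF-kB associated genes had 11 shared falls and 3 shared rises among 29 (37.9% and 10.3%, against 9.18% and 9.00% of all genes). PTGS2, the inducible prostaglandin synthase, fell (-1.24 ± 0.044 and -1.64 ± 0.044), IL1B (-1.55 ± 0.062 and -1.22 ± 0.062), LIF (-2.90 ± 0.071 and -0.92 ± 0.071), and CXCL1, whose probes may be shared with CXCL2 and CXCL3 (-0.94 ± 0.052 and -1.47 ± 0.052).

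FOXO targets and insulin pathway genes moved both ways, with 8 shared rises (26.7%), 5 shared falls (16.7%) and 3 opposite among 30. SESN3, a stress protein that restrains mTORC1, rose most. In A375, SESN3 read 6.10, 6.18 and 6.19 with DMSO and 8.59, 8.58 and 8.64 with vemurafenib. In A2058, SESN3 read 8.42, 8.49 and 8.60 and 9.94, 10.01 and 9.95. Its groups lay far apart, at 2.45 ± 0.05 and 1.46 ± 0.05. TXNIP, which limits glucose uptake, rose by 1.14 ± 0.041 and 0.69 ± 0.041, and the adaptor of the insulin receptor IRS2 by 0.78 ± 0.049 and 0.63 ± 0.049. Regulatory subunits of PI3 kinase rose by unlike amounts, PIK3R1 mostly in A375 (1.92 ± 0.037 and 0.20 ± 0.037) and PIK3R3 mostly in A2058 (0.59 ± 0.088 and 2.23 ± 0.088). PDK4, a FOXO target and relative of PDK1, fell (-1.15 ± 0.058 and -0.88 ± 0.058).

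In the BCL2 family 5 of 19 genes were shared rises (26.3%) and 2 shared falls (10.5%, against 9.18% of all genes). BMF, which promotes apoptosis on loss of attachment or survival signals, had the largest rise by the smaller change. The A375 arrays gave BMF levels of 6.12, 6.06 and 6.04 with DMSO and 7.47, 7.49 and 7.37 with vemurafenib. Those of A2058 gave BMF levels of 5.64, 5.84 and 5.58 and 7.54, 7.35 and 7.06. All treated arrays exceeded the controls, with rises of 1.37 ± 0.1 and 1.63 ± 0.1. BCL2L11, which encodes the pro-apoptotic protein BIM and is restrained by ERK, rose by 0.84 ± 0.064 in A2058, against 0.092 ± 0.064 in A375 (difference -0.75 ± 0.091, adjusted p = 3.76e-05). The pro-apoptotic HRK (0.31 ± 0.068 and 0.16 ± 0.068) and BAK1 (0.47 ± 0.054 and 0.21 ± 0.054) and the survival gene BCL2A1, given above, were the other rises. PMAIP1, which encodes NOXA, a pro-apoptotic neutraliser of MCL1, fell (-1.09 ± 0.055 and -2.60 ± 0.055), and MCL1, a survival protein (-0.53 ± 0.064 and -0.33 ± 0.064). Of 28 p53 targets 5 were shared rises and 5 shared falls (17.9% each), and 5 were opposite. The largest rise was TP53INP1 (1.26 ± 0.066 and 2.36 ± 0.066). TP53I3 rose by 0.44 ± 0.049 and 0.39 ± 0.049, and the nuclease AEN fell (-0.43 ± 0.066 and -0.42 ± 0.066). Without A375 vemurafenib replicate 1 the p53 list held 13 members in place of 10.

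Genes of amino acid supply were mixed. Of 41 ATF4 targets and unfolded protein response genes 14 were shared falls (34.1%) and 5 shared rises (12.2%), and 8 were opposite. The cystine transporter SLC7A11 fell (-1.20 ± 0.054 and -1.62 ± 0.054), the glutamine transporter SLC38A1 (-1.28 ± 0.084 and -1.19 ± 0.084), EDEM1, of protein degradation from the endoplasmic reticulum (-0.74 ± 0.052 and -0.91 ± 0.052), and DDIT4, an inhibitor of mTORC1 (-1.05 ± 0.047 and -0.72 ± 0.047). ATF4 itself fell (-0.36 ± 0.035 and -0.46 ± 0.035). Lipid synthesis divided: 12 of 27 genes were opposite, 5 were shared rises (18.5%) and 3 shared falls (11.1%). Fatty acid synthase, FASN (-0.86 ± 0.048 and -0.73 ± 0.048), the elongase ELOVL6 (-0.81 ± 0.1 and -0.28 ± 0.1) and the regulator SREBF1 (-0.43 ± 0.045 and -0.39 ± 0.045) fell, and HMGCS1, of cholesterol synthesis, rose (0.67 ± 0.062 and 1.11 ± 0.062). Mitochondrial genes were balanced, with 5 shared rises (12.8%) and 6 shared falls (15.4%) among 39 and a median of 0.00. Over all genes the shares were 9.00% and 9.18%. NDUFB8 fell (-0.64 ± 0.037 and -0.18 ± 0.037) and UQCRC1 (-0.38 ± 0.04 and -0.18 ± 0.04), while NDUFB5 rose by 0.33 ± 0.069 and 0.14 ± 0.069 and COX4I1 by 0.12 ± 0.052 and 0.14 ± 0.052. With arrays centred on their median 1 mitochondrial gene met the rule as a rise and 7 as falls. Among 20 histone genes, whose probes can be shared, 10.0% were shared rises and 5.0% shared falls, against 9.00% and 9.18% of all genes. The 2 rises were H2BC21 (1.10 ± 0.056 and 0.33 ± 0.056) and H4C8 (0.39 ± 0.064 and 0.30 ± 0.064). The 1 fall was H4C2 (-0.89 ± 0.092 and -0.15 ± 0.092).

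Interferon stimulated genes met the rule in 16 of 44 cases, all as rises (36.4%, against 9.00% of all genes), while 6 were opposite. The size of the change was unlike: the median over the list was 3.0 in A375 and 0.04 in A2058. Of the 16, 14 differed between the lines by limma at an adjusted p under 0.05, each with the larger rise in A375. IRF9, the subunit that brings STAT proteins to interferon response elements, is shown by array. Levels of IRF9 were 6.76, 6.71 and 6.68 in A375 with DMSO and 8.80, 8.75 and 8.79 with vemurafenib. In A2058 they were 6.70, 6.68 and 6.62 and 7.33, 7.41 and 7.41. Both lines were free of overlap, at 2.06 ± 0.042 in A375 and 0.72 ± 0.042 in A2058 (difference 1.35 ± 0.059, adjusted p = 3.45e-09). The antiviral genes SAMD9L (3.84 ± 0.081 and 0.99 ± 0.081) and SAMD9 (2.48 ± 0.065 and 0.78 ± 0.065) had larger A2058 changes than IRF9. MX2 rose by close amounts, at 0.72 ± 0.045 and 0.64 ± 0.045 (difference 0.079 ± 0.063, adjusted p = 0.448). Antigen presentation had 3 shared rises among 16, B2M (1.23 ± 0.043 and 0.23 ± 0.043), NLRC5 (1.06 ± 0.055 and 0.17 ± 0.055) and TAP1 (1.58 ± 0.043 and 0.15 ± 0.043), and 7 opposite genes.

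**Figure D5:**
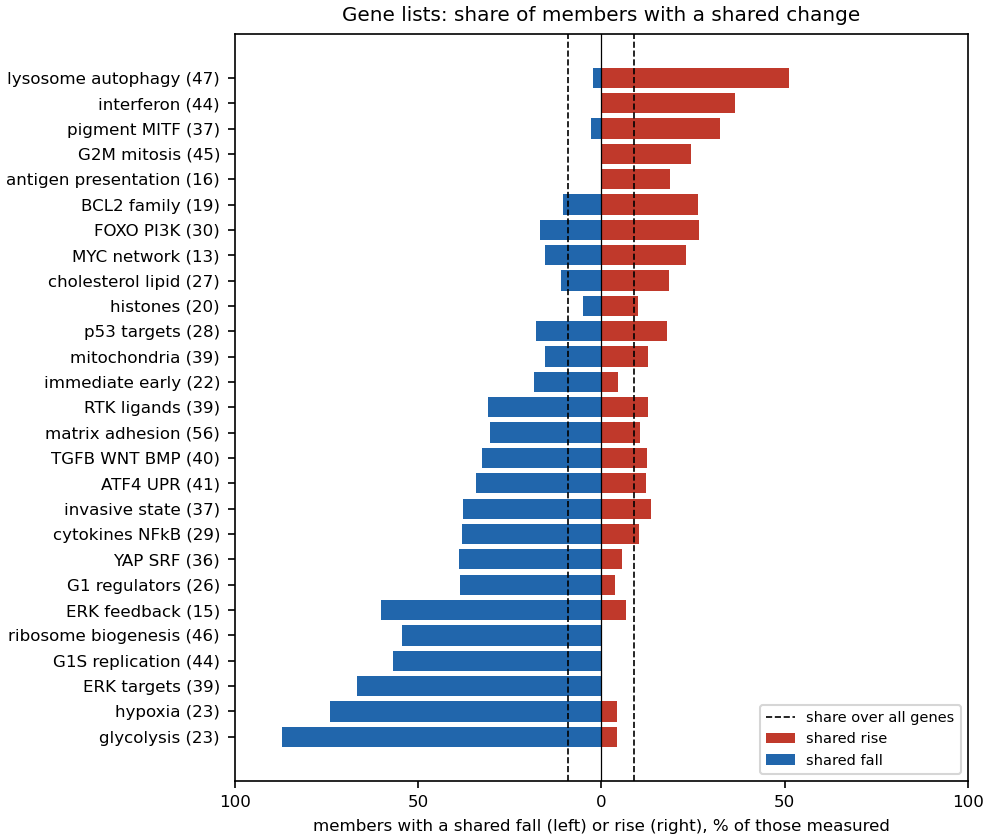
Bars give, for each gene list with its number of measured genes in brackets, the percentage of its genes that were shared rises (right, red) or shared falls (left, blue); dashed lines mark the same shares over all genes, 9.00% and 9.18%. Lysosomal genes reach 51.1% as rises, and glycolysis genes 87.0% as falls.

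The rule did not set how alike the sizes were. Of the 3347 members 1453 (43.4%) differed in size between the lines by limma's test of the difference at an adjusted p under 0.05, where 29.5% of all genes did. A375 had the larger change in 1088 of these and A2058 in 365. Among rises the counts were 499 and 185, and among falls 589 and 180. Without A375 vemurafenib replicate 1, 1700 members differed. Close changes were seen for GRAMD1B (-2.63 ± 0.052 and -2.73 ± 0.052) and SFRP1, given above. At the uneven end SYTL5, a Rab effector of vesicle traffic, changed by -5.24 ± 0.067 in A375 from levels of 10.14, 10.11 and 10.14, whereas in A2058 it was dim throughout, between 4.23 and 4.51. FERMT1, an integrin activator, was similar, at -4.14 ± 0.048 and -0.39 ± 0.048, with A2058 arrays between 4.28 and 4.76. The smaller A2058 changes of both genes were thus measured near the low end of the array signal.

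At its margin the rule admits gaps smaller than the spread of replicates. The member with the narrowest gap was ZNF585A, with A375 arrays of 5.33, 5.36 and 5.21 under DMSO and 5.36, 5.92 and 5.48 under vemurafenib. COMMD5 and PCSK7 followed inside the limit. Just outside were S100Z, the tumour suppressor APC (0.13 ± 0.058 and 0.47 ± 0.058) and the nucleolar protein NOP10 (0.15 ± 0.054 and 0.15 ± 0.054), whose groups overlapped by less than the second decimal.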

How the data were processed

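Values are the log2 expression levels of the series' table, deposited by the authors. R 3.0.1 and affy are named in the submitters' processing notes, whereas for background correction and summary the sources used here name no method. Of 32321 probe sets, 19158 had 1 gene symbol, 1388 several and 11775 none; probe sets with 1 symbol gave 18404 genes, and for 637 genes with several the brightest was kept. Array medians lay between 5.19 and 5.3, so arrays were not rescaled. The main fit was limma 3.58.1 in R 4.3.3 on the 4 group means, with Benjamini-Hochberg adjustment over all genes and called at 0.05; it was tested on simulated data. Alternatives were a replicate block, mean of probe sets, dim genes left out, a trended prior, array weights, an additive model, centred arrays, stricter membership and each array left out.

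Members and gene lists were chosen with earlier results of these data known. Named genes are the 15 largest rises and falls, up to 4 members per list with 3 or more, 12 preset genes, the 5 largest line differences each way, genes at the rule's margin and opposite genes; other named genes were chosen after their values were seen. Promoters of 14228 genes came from RefSeq (GRCh38.p14) and were searched over 250 bases before the start. The number of arrays, 3 a group, limits the precision.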

Additional observations from a re-analysis of the deposited data

Results flagged for a closer look

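Only the 145 genes named by the rules given above were looked at here, not the other genes named in the text. For 26 shared genes among the 145 the change differed between the lines by more than 1 log2 unit in limma's test against that margin. The test was adjusted over all genes, and the share of all genes that passed it is not given here. Without that margin 29.5% of all genes differed between the lines at an adjusted p under 0.05. The 5 largest line differences each way and the opposite genes entered the 145 by their values on these arrays. Their passing was thus largely fixed and is no test of them. Values are the A375 change minus the A2058 change. Among genes that rose in both lines, the difference was 1.68 for CCN3, 1.98 for OLFML2A, 1.89 for JUN and 1.89 for CTSK. Of the interferon and antigen genes, SAMD9L gave 2.85, SAMD9 1.70, IRF9 1.35, TAP1 1.42, HERC6 3.52, MX1 4.15 and IFIT1 5.72. ANGPTL7 gave 3.95 and the complement protease C1S 4.90. For TYRP1, which rose more in A2058, the difference was -2.88. The A2058 arrays of IFIT1 (4.54 to 4.99), C1S (4.71 to 5.17) and ANGPTL7 (4.75 to 5.36) lay near the low end of the signal. Their A2058 changes were 0.28, 0.39 and 0.49.

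Among falls, A375 fell further for CEMIP (-1.40), PDK1 (-1.37), ANGPTL4 (-2.63), INHBA (-1.98), LIF (-1.98), ITGB3 (-1.37), SYTL5 (-5.04), FERMT1 (-3.74), TINAGL1 (-3.40) and GPRC5A (-2.95). A2058 fell further for EPHA4 (1.5) and PMAIP1 (1.51).

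Another 6 genes moved in opposite directions without overlap in either line. MMP1 (4.47), DKK1 (4.38) and HLA-DMB (2.89) were higher with vemurafenib in A375 and lower in A2058, and FBXO32 (-3.58), IGSF3 (-2.38) and RFLNB (-2.18) the reverse.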

How the results depend on the processing

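The average effect called between 5223 genes (additive model) and 8391 (array weights), against 7132. With the replicate number as a block it called 6873, 3509 up and 3364 down, and 1384 members differed between the lines. Same-numbered arrays correlated at -0.395 to 0.351 in their deviations from group means. With 3 arrays a group this check cannot tell whether the numbers mark shared batches. The main fit used no pairing. Asking for at least 2-fold in each line left 155 members, 43 rises and 112 falls, and asking for a call in each line left 2420 of the 3347. Centring arrays gave 3203 members, 1344 rises and 1859 falls, of which 2938 were in the main set; its gene list counts were added after seeing the data, and there 5 histone genes met the rule in place of 3. With 1 array left out the calls ranged from 6597 to 7956 (3352 to 4118 up, 3207 to 3838 down), the members from 3491 to 3929 (1720 to 2067 rises, 1757 to 1902 falls) and those that differed between lines from 1311 to 1700, each highest without A375 vemurafenib replicate 1 except the falls. Most named genes were picked for large changes on these arrays, so that their calls held says nothing about stability. Only the 145 genes named by rule were followed through the alternatives, not the other genes named in the text. Of the 145, the call of 9 was lost or gained under some alternative, none with a change of sign. These were COMMD5, MMP1, DKK1, RFLNB, MKI67, S100Z, FBXO32, IGSF3 and ZNF585A. The call of MKI67 was lost in the additive model (limma adjusted p = 0.111). Signal limits what was called: the average effect called 7.85% of the dimmest 25% of genes and 65.3% of the brightest.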

Other observations

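Few noncoding transcripts were members, and those named here were chosen after their values were seen. Beside LINC00518, LINC00310 changed by 0.96 in A375 and 0.56 in A2058, and LINC01963 by 0.83 and 0.48. TFAP2A-AS1 changed by 0.16 and 1.02, and since strand use in the probe design was not checked, its signal cannot be told apart from that of neighbouring TFAP2A transcripts. The let-7i precursor MIRLET7I changed by 0.18 and 0.39. Of 175 measured small nucleolar RNAs 6 were members, and of 173 microRNA precursors 5, against 18.2% of all genes. Membership went with signal level, from 2.41% in the dimmest to 35.3% in the brightest group of genes given above. The part of signal level in the low counts of noncoding transcripts was not tested.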
